A study of Homo sapiens with 3 samples.

Results

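The genes described here encode RNA polymerase II and the general factors that bring it to promoters. They were chosen by symbol, as 45 listed genes out of 18239 genes with a probe set annotated to 1 gene. There were 12 polymerase subunits, 17 genes of TFIIA, TFIIB, TFIIE, TFIIF and TFIIH, and 16 genes of TFIID, which are TBP and the TBP-associated factors (TAFs). Messenger RNA was measured in the human renal carcinoma line A498 on Affymetrix arrays with 1 array per group. The groups were DRB (60 µM), E. coli 83972, a bladder isolate known for carriage without symptoms, and a control with 0.08% DMSO. RNA was taken 4 h after treatment of confluent cells in serum-free medium with gentamicin, which all 3 cultures shared, and DMSO is named for the control alone. The labels disagree on the bacterial concentration, so none is given.

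RNA polymerase II transcribes the protein-coding genes of the nucleus. At a promoter, TBP bends the DNA, the TAFs hold TBP in TFIID and contact downstream DNA and histone marks, TFIIA and TFIIB stabilise the complex, TFIIF escorts the polymerase, TFIIE recruits TFIIH, and TFIIH opens the DNA and phosphorylates the tail of the largest subunit. DRB, an adenosine-like compound, inhibits CDK9, the kinase that releases the paused polymerase into elongation, and at higher concentrations also CDK7, the kinase of TFIIH. In general, the level of an mRNA whose synthesis is blocked follows its decay.

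Of the 45 genes, 41 passed the filter on low signal, which asked that the highest of the 3 values reach the median of all values in the table, 4.88 on the log2 scale. GTF2A1, GTF2H4 and TAF4B were measured under that level on every array. GTF2H2 has no value because its probe sets are annotated to several near-identical copies. A level is the deposited log2 value of the gene's brightest probe set. Probe sets differ in how well they bind, so the order of levels between genes says nothing of the order of their transcripts. A difference is the log2 value of a treated array minus that of the control array, and a gene is counted when the difference is at least 1 in size, that is 2-fold. Signs are as deposited: centring on poly-A spike-ins would lower every difference with DRB by 0.67 and with E. coli 83972 by 0.05, and centring on hybridization spike-ins by 0.23 and 0.34. Each difference compares 2 arrays, without replicates and therefore without a test. In a bulk sample fewer cells and less RNA per cell cannot be told apart.

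Of 8 markers of kidney epithelium and renal carcinoma 7 passed the filter on signal, among them KRT18 with 11.67 on the DRB array, 11.55 on the E. coli 83972 array and 11.63 on the control array, and PAX8 with 6.10, 7.23 and 7.07 in the same order. With E. coli 83972 the 7 differed from the control by −0.57 (KRT19) to 0.20 (PAX2), and with DRB by −0.98 (PAX8) to 0.23 (KRT19). CA9 has no probe set named to it alone. Of 11 markers of other cell types 6 passed. HBB read 6.29 on the DRB array, 5.97 on the E. coli 83972 array and 6.13 on the control array. The 2 leukocyte markers that passed were CD3E, with 5.03, 4.53 and 4.80 in that order, and CD79A, with 5.32, 5.24 and 4.88, while PTPRC read 3.52, 3.43 and 3.41. The 3′ to 5′ difference of the GAPDH control probe sets was 0.09 on the DRB array, 0.16 on the E. coli 83972 array and 0.08 on the control array. The same difference for the actin control probe sets was 1.83, 2.00 and 1.98 in that order.

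With DRB, 6 of the 41 measured genes were at least 2-fold lower than in the control and 0 were at least 2-fold higher. All 6 encode initiation factors: TAF4, GTF2E1, TAF5, TBP, TAF3 and CDK7. None of the 12 polymerase subunits was among them. Over all 11653 kept genes, 10.2% were at least 2-fold lower with DRB and 0.129% at least 2-fold higher. The counts by group were 0 of 12 for the polymerase, 2 of 14 for TFIIA to TFIIH and 4 of 15 for TBP and the TAFs. The share of genes called depended on level: it was 8.06%, 16.8% and 5.69% in the lowest, middle and highest of 3 classes of mean level with equal numbers of genes. Of the polymerase subunits 10 of 12 lay in the highest class, against 9 of 14 for TFIIA to TFIIH and 6 of 15 for TBP and the TAFs. Whether level accounts for the different counts was not tested.

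**Figure D1:**
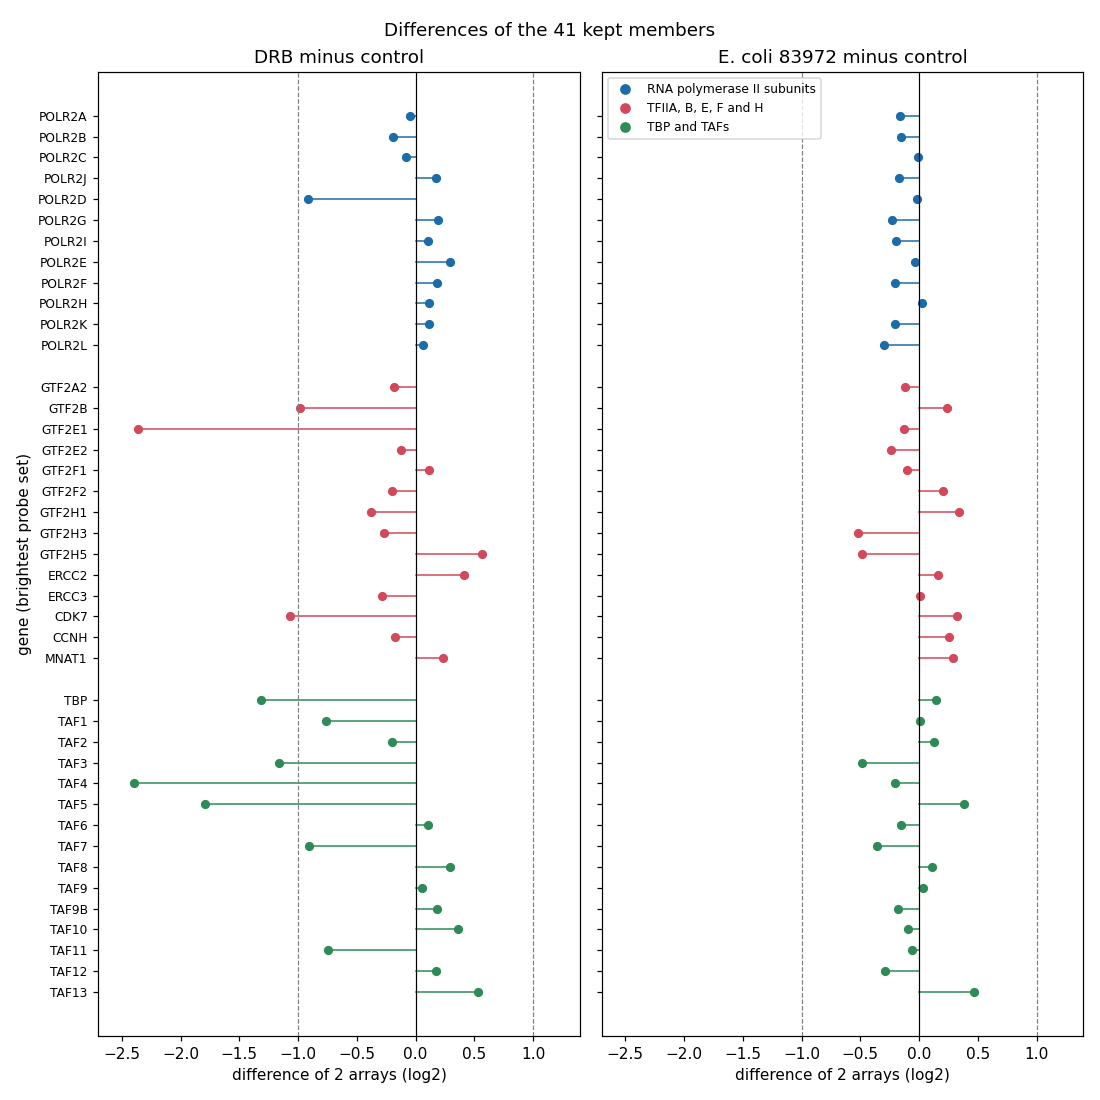
Log2 difference from the control array for the 41 kept genes (rows), with DRB on the left and E. coli 83972 on the right. Dashed lines mark 2-fold; 6 genes lie beyond the lower line with DRB and 0 with E. coli 83972.

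TAF4 is a core TAF that pairs with TAF12 through its histone fold. Its level was 4.97 on the DRB array, 7.16 on the E. coli 83972 array and 7.36 on the control array. The difference with DRB was −2.39, or 5.26-fold lower, and 139 of the 11653 kept genes had a more negative one (1.19%). TAF4 has 1 probe set, and its DRB level stood just above the filter level, where RMA values are compressed. TAF12, its partner, stayed near the control: its levels were 7.06 with DRB, 6.60 with E. coli 83972 and 6.89 in the control, a difference of 0.17 with DRB.

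GTF2E1 encodes the large subunit of TFIIE, which draws TFIIH to the polymerase. It read 5.95 with DRB, 8.18 with E. coli 83972 and 8.31 in the control, which is 5.13-fold lower with DRB (−2.36, with 147 kept genes more negative). The partner subunit GTF2E2 read 8.98 with DRB, 8.87 with E. coli 83972 and 9.11 in the control, a difference of −0.12 with DRB. The 2 subunits of this factor thus stood apart on the DRB array and not on the E. coli 83972 array, where they differed from the control by −0.13 and −0.24. A second GTF2E1 probe set lay under the filter level on all 3 arrays, and with it the mean difference with DRB was −1.21.

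TAF5, a WD-repeat scaffold on which the core of TFIID is built, read 4.56 with DRB, 6.74 with E. coli 83972 and 6.35 in the control. It was 3.47-fold lower with DRB (−1.79), and its DRB level was under the filter level, so the size of the fold is uncertain. TBP, the TATA-binding protein, read 5.75 with DRB, 7.21 with E. coli 83972 and 7.07 in the control, 2.49-fold lower with DRB (−1.32). Its 2 kept probe sets had a mean difference of −1.14 ± 0.25 (SD over probe sets). The remaining TBP probe set, under the filter level, differed by 0.15, and the mean over all 3 was −0.71, short of 2-fold.

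CDK7, the kinase of TFIIH, read 7.75 with DRB, 9.14 with E. coli 83972 and 8.82 in the control, 2.10-fold lower with DRB (−1.07). It stood closest to the threshold of the 6, and its difference was −0.996 under quantile normalization, short of 2-fold. The other subunits of the kinase module were near the control: CCNH, its cyclin, differed by −0.18 with DRB, and MNAT1, which assembles the kinase with the cyclin, by 0.23. TAF3, which binds trimethylated lysine 4 of histone H3, read 5.64 with DRB, 6.32 with E. coli 83972 and 6.80 in the control in its brightest probe set (−1.16 with DRB). Its 2 other probe sets differed by 0.53 and 0.00, so its mean was −0.21 ± 0.87 (SD over 3 probe sets). With a quantile normalization or with plain-suffix probe sets its sign turned (0.68 and 0.53), so the call for TAF3 rests on the choice of probe set.

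The DRB array held the lowest of the 3 levels for all 6 genes, which follows largely from choosing them as lower with DRB. On the E. coli 83972 array the same genes lay between −0.48 and 0.38 of the control. Just short of 2-fold lower with DRB were GTF2B (−0.98), POLR2D (−0.92) and TAF7 (−0.91). GTF2B, the sole subunit of TFIIB, which sets the distance between TBP and the start site, read 7.66 with DRB, 8.87 with E. coli 83972 and 8.64 in the control.

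**Figure D2:**
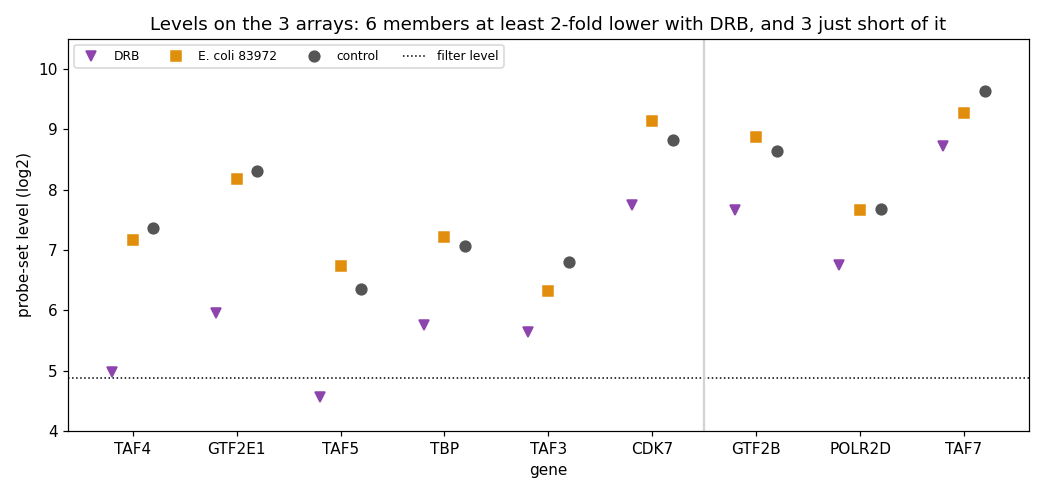
Log2 level on the DRB, E. coli 83972 and control arrays for the 6 genes at least 2-fold lower with DRB (left of the grey line) and the 3 just short of it (right). The dotted line is the filter level of 4.88, and the TAF5 triangle (DRB) is under it. Each triangle lies below the other 2 symbols of its gene, which follows largely from how the genes were chosen.

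The upstream sequences of 3 of these genes and of the polymerase subunit gene with the most positive difference, POLR2E, are shown for the motif letters they hold. The 3 genes all hold CCAAT, as does TAF5, and CDK7 and TAF3, which were also lower with DRB, do not. Of all kept genes with an entry 41.3% hold it, and whether it bears on the DRB values was not tested. The sequences are the 250 bases before the start site, 5′ to 3′ on the gene's strand, from RefSeq with build GRCh38.p14. Capitals mark the motif CCAAT, the motif GGGCGG, the motif TATAAA or the motif CCGGAAG on either strand. TAF4 lies at chr20:62065882-62066131 (minus strand), GTF2E1 at chr3:120742494-120742743 (plus), TBP at chr6:170554119-170554368 (plus) and POLR2E at chr19:1095376-1095625 (minus).
TAF4: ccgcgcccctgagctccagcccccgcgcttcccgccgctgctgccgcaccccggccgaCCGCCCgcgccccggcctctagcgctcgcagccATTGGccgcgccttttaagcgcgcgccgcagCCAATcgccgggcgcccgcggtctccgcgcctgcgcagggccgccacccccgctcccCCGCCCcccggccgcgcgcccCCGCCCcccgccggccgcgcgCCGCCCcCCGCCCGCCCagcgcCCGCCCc
GTF2E1: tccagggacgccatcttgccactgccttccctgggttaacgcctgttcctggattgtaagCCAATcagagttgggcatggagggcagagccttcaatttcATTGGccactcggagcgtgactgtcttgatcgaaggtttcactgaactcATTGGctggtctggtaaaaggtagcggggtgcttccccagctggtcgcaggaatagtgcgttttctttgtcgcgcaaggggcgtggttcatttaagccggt
TBP: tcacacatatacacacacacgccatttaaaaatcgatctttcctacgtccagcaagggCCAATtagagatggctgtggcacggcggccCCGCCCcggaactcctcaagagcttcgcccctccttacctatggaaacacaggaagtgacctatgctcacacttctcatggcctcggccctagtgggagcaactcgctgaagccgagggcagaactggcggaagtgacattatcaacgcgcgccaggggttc
POLR2E: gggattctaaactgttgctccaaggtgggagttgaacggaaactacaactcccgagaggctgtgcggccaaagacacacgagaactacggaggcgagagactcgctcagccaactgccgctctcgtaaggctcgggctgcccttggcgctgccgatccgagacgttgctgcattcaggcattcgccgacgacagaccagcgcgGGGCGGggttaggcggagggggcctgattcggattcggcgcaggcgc

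The promoter table held 38 of the 45 genes. GTF2E2, POLR2G, POLR2I, POLR2J, POLR2K, TAF2 and TAF8 had no entry. The 6-base TATA element TATAAA lay in 1 of the 38 (GTF2B), against 10.7% of all 35116 promoters of that length in the table, 13.0% of all genes in it and 8.50% of the kept genes with an entry. Genes, like the members, were counted when any of their start sites held the motif. CCAAT, the site letters of the factor NF-Y, lay in 10 of 38, against 32.0% of all promoters, 37.0% of all genes and 41.3% of kept genes. It was in 4 of the 6 genes at least 2-fold lower with DRB, which are TAF4, GTF2E1, TAF5 and TBP, in 6 of the 32 others, and in 0 of 8 polymerase subunit genes. CCGGAAG, a core of ETS sites, lay in 14 of 38, against 8.52% of all promoters, 10.2% of all genes and 18.2% of kept genes, and GGGCGG, bound by SP1, in 25 of 38 against 42.6%, 46.2% and 73.8%. Another 6 motifs lay in at most 3 of the 38 each. Their shares of all promoters, all genes and kept genes follow in that order. GCATGCGC, as in NRF1 sites, had 2.63%, 3.22% and 5.56%, and ACTACAA, as in ZNF143 sites, 2.47%, 3.06% and 4.17%. TGACGTCA, as in CREB sites, had 1.65%, 2.03% and 3.31%, and its variant TGACGCA 2.09%, 2.56% and 4.06%. CATCTTGG, with no factor named here, had 0.897%, 1.09% and 1.14%, and CGCGAGA, as in ZBTB33 sites, 2.95%, 3.55% and 6.39%. These matches describe letters in the windows only. Of the members 9 have several listed start sites, and motifs may overlap.

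With DRB most polymerase subunits, like most kept genes, lay close to the control. Their median difference was 0.11, against 0.05 for all kept genes, −0.19 for TFIIA to TFIIH and −0.20 for TBP and the TAFs. The last of these medians was 0.03 with quantile normalization and −0.47 with a stricter filter, so neither its sign nor its size is settled. As deposited, 8 of the 12 subunits were above 0, beside 55.8% of all kept genes, and 11 lay within 0.5 of it, beside 75.7% of all kept genes. The sign of the median turned with poly-A spike-in centring, which gave −0.56 for the polymerase and −0.62 for all kept genes, and with hybridization spike-in centring (−0.12 and −0.18). The technical SD of a difference, taken from the disagreement of the 2 brightest kept probe sets of 6317 genes, was 0.32 with DRB (0.15 as a robust estimate), and it leaves out variation between cultures.

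**Figure D3:**
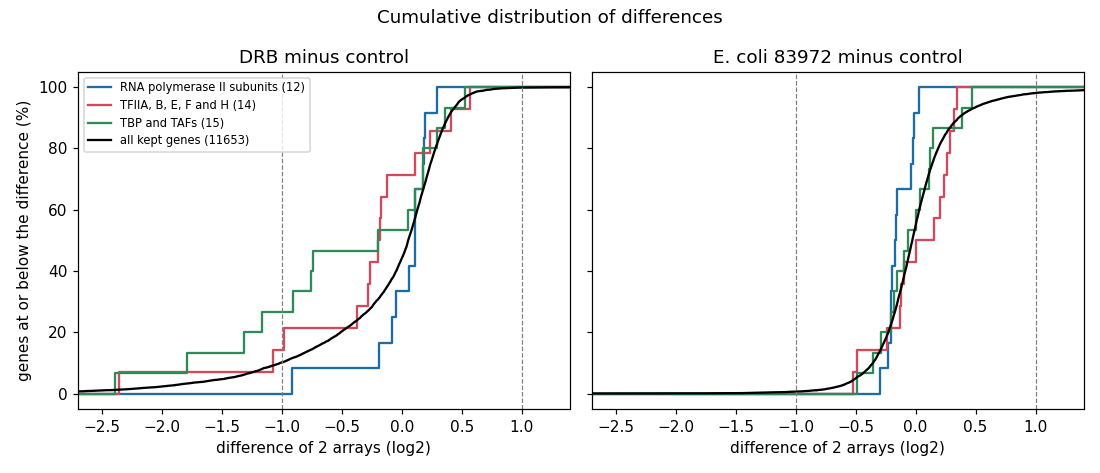
Percentage of genes at or below each log2 difference from control, with DRB (left) and E. coli 83972 (right), for the 3 groups and all 11653 kept genes. With DRB the polymerase curve starts at −0.92, while those of the initiation factors extend to −2.36 and −2.39; dashed lines mark 2-fold.

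POLR2A encodes the largest subunit, which holds the catalytic centre and the repeat tail. It read 7.14 with DRB, 7.03 with E. coli 83972 and 7.19 in the control, a difference of −0.05 with DRB. POLR2B, the second largest subunit, which closes the active centre from the other side, read 10.43 with DRB, 10.47 with E. coli 83972 and 10.62 in the control (−0.19 with DRB). Both catalytic subunits were thus within 0.2 of the control. POLR2C and POLR2J, which pair to start assembly of the enzyme, differed by −0.08 and 0.18 with DRB. The kept probe sets of POLR2C ran from −0.08 to 0.29, and the second kept one of POLR2A differed by 0.06. The signs for POLR2A and POLR2C thus depend on the probe set. The POLR2J probe sets may also bind its near-identical copies, so its value is uncertain.

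Of the 5 subunits shared with RNA polymerases I and III, POLR2E, POLR2F, POLR2H, POLR2K and POLR2L, none was below the control with DRB. Their differences ran from 0.06 (POLR2L) to 0.29 (POLR2E). POLR2E read 8.79 with DRB, 8.46 with E. coli 83972 and 8.50 in the control, and its 4 kept probe sets had a mean difference of 0.38 ± 0.06 (SD over probe sets). POLR2I, a zinc-binding subunit, differed by 0.11.

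POLR2D was the exception among the subunits. With POLR2G it forms the stalk, which binds the new RNA and can leave the enzyme. POLR2D read 6.75 with DRB, 7.65 with E. coli 83972 and 7.67 in the control, a difference of −0.92 with DRB, and its 2 kept probe sets had a mean of −0.67 ± 0.36. POLR2G read 9.54 with DRB, 9.12 with E. coli 83972 and 9.35 in the control (0.19). With centring on the poly-A or the hybridization spike-ins, POLR2D became the 1 polymerase gene at least 2-fold lower.

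Among the initiation factors other than TFIID, the largest positive difference was that of GTF2H5, a small subunit that stabilises TFIIH, which read 8.95 with DRB, 7.89 with E. coli 83972 and 8.38 in the control (0.56 with DRB). GTF2H5 thus stood above the control with DRB and below it with E. coli 83972 (−0.49). ERCC2, the helicase known as XPD, differed by 0.41 and ERCC3, the translocase XPB that opens the promoter, by −0.28. GTF2H1, a scaffold subunit of TFIIH measured by 8 kept probe sets, differed by −0.38, with a mean of −0.25 ± 0.19. GTF2H3, another core subunit, differed by −0.27. GTF2A2, the small chain of TFIIA, differed by −0.18, and the TFIIF subunits GTF2F1 and GTF2F2 by 0.11 and −0.20. A second kept probe set differed by 0.16 for GTF2H3, 0.10 for GTF2F2 and 0.04 for ERCC2. The dimmest of GTF2A2 differed by 0.41, and its others were below 0. The signs for GTF2H3, GTF2F2 and GTF2A2 thus depend on the probe set.

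The TAFs lay on both sides of the control with DRB. Beside TAF4, TAF5 and TAF3, values under −0.5 were found for TAF7, which binds TAF1 and is released on initiation (−0.91), TAF1, the largest TAF (−0.76), and TAF11, which pairs with TAF13 (−0.74). Of the 15 genes of TFIID, 7 were at least 1.5-fold lower, against 3 of 14 for TFIIA to TFIIH and 1 of 12 for the polymerase. Over all kept genes 18.1% were at least 1.5-fold lower with DRB. Of the 7, TAF1 and TAF3 count only by their brightest probe set. The means over their kept probe sets were −0.16 and −0.21. TAF11 was lower to a like extent in its 3 kept probe sets (mean −0.69 ± 0.07). TAF13, its partner, had the most positive difference of the group (0.53), but read 5.22 with DRB, 5.16 with E. coli 83972 and 4.69 in the control, near the filter level. TAF13 passed the filter only through the treated arrays, so its difference is uncertain. TAF10, shared with the coactivator SAGA, read 10.38 with DRB, 9.93 with E. coli 83972 and 10.02 in the control (0.36). TAF6 (0.11), TAF8 (0.29) and TAF2, which contacts the initiator (−0.20), lay nearer to the control. A second kept probe set differed by −0.40 for TAF8 and 0.12 for TAF2, so their signs depend on the probe set.

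Of the paralogs, TAF4B read 4.25 with DRB, 4.56 with E. coli 83972 and 4.26 in the control, under the filter level throughout, so it cannot be set beside TAF4. TAF9 read 9.37 with DRB, 9.35 with E. coli 83972 and 9.32 in the control (0.05), and TAF9B read 9.17, 8.81 and 8.99 in the same order (0.18 with DRB). Their sequences are close, and each may bind part of the other's signal.

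Probe sets of 1 gene disagreed by more than 1 on the log2 scale with DRB for 3 of 24 members with several kept probe sets, TAF1, TAF3 and TAF9, and for 8.96% of 6317 genes of all. TAF9 had 3 probe sets between −0.02 and 0.13, and a further one that read 6.10 with DRB, 8.62 with E. coli 83972 and 8.15 in the control (−2.04). TAF9 overlaps the gene AK6 in the genome, and which transcripts each probe set detects was not tested. The TAF1 probe sets differed by −0.76 and 0.44. With E. coli 83972 0 of 24 members disagreed by that much, against 1.55% of all genes.

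**Figure D4:**
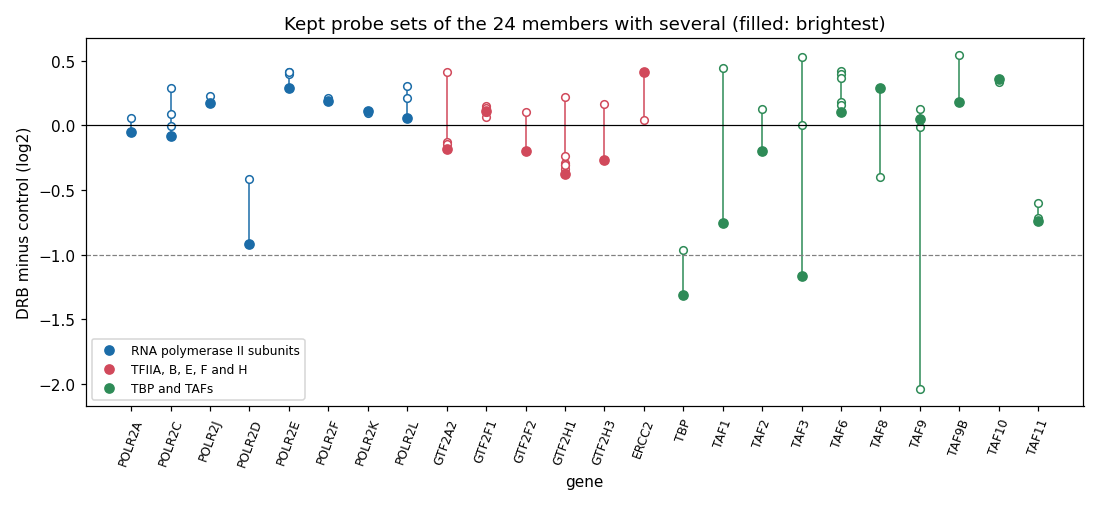
Log2 difference between the DRB and control arrays for each kept probe set of the 24 genes that have several; filled points are the brightest probe sets, the line joins the lowest and highest, and the dashed line marks 2-fold lower. TAF1, TAF3 and TAF9 span more than 1.

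With E. coli 83972 the machinery, like most kept genes, lay close to the control. Of the 41 genes 40 were within 0.5 of it, beside 88.5% of all kept genes. None of the 41 genes was at least 2-fold different in either direction, where 0.652% of all kept genes were at least 2-fold lower and 1.91% at least 2-fold higher. With shares that low, a count of 0 among 41 genes does not set the machinery apart. The most negative differences were those of GTF2H3 (−0.52), GTF2H5 (−0.49) and TAF3 (−0.48), and the most positive those of TAF13 (0.47), TAF5 (0.38) and GTF2H1 (0.34). The second kept probe set of GTF2H3 differed by 0.10, and the mean over the 3 kept probe sets of TAF3 was −0.10 ± 0.33 (SD over probe sets). TAF13 read 4.69 in the control, under the filter level, and passed the filter only through the treated arrays, so its difference is uncertain. The technical SD was 0.18 (0.12 as a robust estimate).

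The subunits of the polymerase were slightly lower than the control in 11 of 12 cases with E. coli 83972, against 54.7% of all kept genes. The values ran from −0.30 for POLR2L to 0.03 for POLR2H, with a median of −0.17, against −0.03 for all kept genes, 0.08 for TFIIA to TFIIH and −0.06 for TBP and the TAFs. POLR2L read 10.59 with E. coli 83972 and 10.89 in the control, and all 3 of its probe sets were below 0. With hybridization spike-in centring the 3 medians were −0.50, −0.26 and −0.40, and that of all kept genes was −0.37. The most negative polymerase difference, −0.30, stood beside a technical SD of 0.18. The values of POLR2C (−0.01), POLR2D (−0.02) and POLR2E (−0.04) were close to 0. All 3 genes of the TFIIH kinase module were above the control, CDK7 by 0.32, MNAT1 by 0.29 and CCNH by 0.26, each measured by 1 probe set, and all of them smaller than the shift of hybridization spike-in centring.

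Both comparisons use the same control array, so their values are only given side by side. TAF5 differed by −1.79 with DRB and 0.38 with E. coli 83972, CDK7 by −1.07 and 0.32, and GTF2H1 by −0.38 and 0.34. Others lay on the same side of the control in both comparisons: TAF3 differed by −1.16 and −0.48, TAF7 by −0.91 and −0.35, and TAF13 by 0.53 and 0.47. TAF13 was kept only through the treated arrays, so a positive difference on a treated array was fixed by the filter. The other kept probe sets of TAF3 were not below the control in either comparison. POLR2F differed by 0.19 with DRB and −0.21 with E. coli 83972, and GTF2H5 by 0.56 and −0.49.

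Genes that work beside the machinery were read from a list of 32 paralogs, TBP regulators, polymerase assembly factors and phosphatases of the polymerase tail, of which 27 were kept. With DRB 5 of them (18.5%) were at least 2-fold lower and 0 higher, beside 10.2% of all kept genes lower, and their median was 0.03. BTAF1, an ATPase that strips TBP from DNA, read 5.76 with DRB, 8.04 with E. coli 83972 and 8.08 in the control (−2.33 with DRB). TBPL1, a TBP paralog that does not bind the TATA element, read 5.48 with DRB, 7.73 with E. coli 83972 and 7.77 in the control (−2.28). The other TBP regulators lay nearer to the control with DRB, with DR1 at −0.38, its partner DRAP1 at 0.60 and SUB1 at 0.00. GPN2 (−1.32) and RPAP2 (−1.04), which act in the assembly and import of the polymerase, and TAF5L (−1.09), the TAF5 paralog of SAGA, were the others at least 2-fold lower. GPN2 read 4.53 with DRB, under the filter level. The other 10 assembly factors ran from −0.86 (PDRG1) to 0.29 (PIH1D1). The 7 tail phosphatases and their partners had 0 at least 2-fold lower, with CTDP1, which removes phosphate from the tail after transcription, lowest at −0.83. With E. coli 83972 0 of the 27 were at least 2-fold different, beside 0.652% of all kept genes lower and 1.91% higher. So low a share does not set these 27 genes apart. CTDSP2 was highest at 0.74.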

How the data were processed

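The values used are the log2 probe-set levels deposited by the authors, made with RMA and Partek per the submitters' processing notes. Which versions, background correction and set of arrays were used is not given in the sources used here. Since RMA brings the arrays to nearly one distribution, a change common to most transcripts is reduced, and dim probe sets show smaller differences. The table held 49386 probe sets, of which 45259 had 1 gene symbol in the platform annotation, 1327 had several and 2800 were not listed. Symbols were updated through Entrez identifiers with RefSeq's table of GRCh38.p14, which matched 45178. Each gene was read from its brightest probe set by mean level, and 11653 genes passed the filter at 4.88. Differences were computed with pandas 2.3.3 and numpy 2.4.6 in Python 3.11.15, with no further normalization or pseudocount, and the calculation was tested on simulated data. Promoter letters were searched over the 250 bases before each RefSeq start site, on both strands, for 10 motifs; an NF-κB motif was also tried and left out.

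Samples were grouped by their titles, all of which number the experiment as 2. No test between groups was run, and precision is limited by having 1 array per group. The members, lists, thresholds and alternatives were chosen with earlier results of these data known; the promoter motifs and the split by level were chosen after the values were seen. Levels on every array are given for the 6 members at least 2-fold lower with DRB and for the paralog pairs. They are also given for some, not all, extremes of each group and genes with discordant probe sets. Some members of these kinds, among them TAF1, GTF2H3 and GTF2H1, are given by their differences alone. Others are named for their place in a complex with a gene of these kinds. The alternatives were the mean over probe sets, plain-suffix probe sets, no filter or a stricter one, centring on poly-A or hybridization spike-ins, quantile normalization and a 1.5-fold threshold.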

Additional observations from a re-analysis of the deposited data

How the results depend on the processing

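No paired analysis was possible because each group holds 1 array. Of 37 recomputed differences of the 6 genes at least 2-fold lower with DRB, 32 stayed at least 2-fold lower, 3 fell short of it and 2 changed sign, both for TAF3 (0.53 with plain-suffix probe sets, 0.68 with quantile normalization). Many of the 32 could not have fallen short. The 2 filter settings left the values of these genes unchanged, and both spike-in centrings lowered every difference with DRB. For TAF4, TAF5 and CDK7, with 1 probe set each, the mean over probe sets was the same value. The counts at least 2-fold lower with DRB, given for the polymerase, TFIIA to TFIIH, and TBP with the TAFs in that order, were 0, 2 and 4 as deposited. They were 1, 4 and 7 with poly-A spike-in centring, with medians of −0.56, −0.86 and −0.87, where 25.1% of all kept genes were at least 2-fold lower. Hybridization spike-in centring gave 1, 3 and 5, where 14.05% of all kept genes were at least 2-fold lower. A 1.5-fold threshold gave 1 for the polymerase and 7 for TBP with the TAFs, where 18.1% of all kept genes were that much lower. Quantile normalization gave 1 for TFIIA to TFIIH, where 8.98% of all kept genes were at least 2-fold lower. The mean over probe sets gave 2 for TBP with the TAFs, where that share was 7.08%. Plain-suffix probe sets left 5 genes of TFIIA to TFIIH and 3 of TBP with the TAFs, with 0 lower in each and a median of 0.36 in the second. Over all genes kept in that setting 11.5% were at least 2-fold lower. With E. coli 83972, hybridization spike-in centring gave medians of −0.50, −0.26 and −0.40, and plain-suffix probe sets gave −0.24 for TFIIA to TFIIH and 0.12 for TBP with the TAFs. A median counted as moved when it shifted by more than the technical SD. The centring moves all genes alike and the smaller sets hold fewer genes. With quantile normalization CDK7 fell short of 2-fold (−0.996), and with the mean over probe sets TBP (−0.71) and TAF3 (−0.21) did. A 1.5-fold threshold counts smaller differences. The cause of any remaining shift was not tested.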
